A study of Antheraea pernyi with 6 samples.

Results

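The genes that fold, modify, export or destroy secretory proteins in the endoplasmic reticulum were compared between female-labelled and male-labelled antennae of adult Chinese oak silkmoths, Antheraea pernyi. The set held 119 genes of the 16458 in the deposited table. A gene was a member if its pathway annotation named protein processing in the endoplasmic reticulum, which 152 genes did, and if its best-hit name did not contain heat shock, hsp or crystallin, which removed 33. The rule used no measured value. Messenger RNA of whole antennae was sequenced in 6 libraries, 3 labelled female and 3 labelled male, and sex was the only difference between the groups that the labels gave. No exact age, strain or treatment was given for either group, and nothing said whether a library came from 1 animal, a pool or repeated preparations of the same RNA. P-values therefore rest on a spread between libraries that may be only technical.

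Secretory proteins enter the endoplasmic reticulum through the Sec61 channel, receive N-linked glycans, and are folded by lectin chaperones, BiP and its helpers, and disulfide isomerases. Proteins that fold leave in COPII-coated vesicles. Those that do not fold are drawn back into the cytosol, tagged with ubiquitin and degraded (ER-associated degradation, ERAD), and the unfolded protein response adjusts the capacity of the whole system. In moth antennae, support cells around the olfactory neurons secrete large amounts of odorant- and pheromone-binding proteins into the lymph that bathes the neurons' dendrites.

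Members are named after the best-hit proteins or symbols in the deposited table, most of them from other insects, and 13 of the 119 were named from a symbol alone. Those are marked as named by symbol. No coordinates are printed, because the genome build is not given in the sources used here. Where a protein was represented by several gene models, often with consecutive identifiers, reads of near-identical copies or of fragments of 1 gene could have been divided between them, and their values are uncertain to that extent.

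Values are FPKM, mapped fragments scaled to transcript length and to library size, as the authors deposited them. Library totals, recovered from the steps between FPKM values, lay between 9392242 and 11180175 reads. Genes with a mean of at least 0.5 FPKM were tested with limma on log2(FPKM + 1), and an adjusted p under 0.05 over all 11590 genes tested was the threshold. Log2 fold changes are the male-labelled minus the female-labelled libraries. Pheromone-binding protein 1 (GWHGABGR012196), from a family that is often male-biased in moths, stood between 90139 and 94059 FPKM in the female-labelled libraries and between 1179 and 1360 FPKM in the male-labelled ones. Exchanged labels and a true sex difference cannot be told apart, so every direction below is one between labels. The olfactory coreceptor Orco (GWHGABGR013501), a marker of the antenna, was at 458 to 470 FPKM in the female-labelled and at 174 to 177 FPKM in the male-labelled libraries. The median of all 11590 genes was 0.23 in log2 fold change on the deposited scale, 0.02 after median-of-ratios rescaling and -0.01 after quantile normalization. Where the call of a named member differs on the other scales, this is said beside it.

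Of the 119 members, 115 were tested, and 29 of them were higher and 20 lower in the male-labelled libraries. Over all genes, 36.9% passed the test, 27.8% as higher and 9.03% as lower in the male-labelled libraries. The median log2 fold change of the members was 0.17, against 0.23 over all genes. Of the 20 lower members, 6 had a translocon role and 3 were oligosaccharyltransferase genes. Of the 29 higher ones, 9 had a role in ubiquitin conjugation, 7 in folding and 7 in ERAD. In antennal tissue in bulk, fewer cells of a type and less RNA per cell cannot be told apart.

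The scale decided how many members passed in each direction. After median-of-ratios rescaling 10 members were higher and 37 lower, where all genes gave 14.3% and 17.6%. Quantile normalization gave 13 higher and 29 lower members, where all genes gave 14.1% and 14.6%. The 20 members called lower on the deposited scale were lower on all 3 scales. Of the 29 called higher, 8 were higher on all 3 scales. These were derlin-2, UFD1 (model GWHGABGR013270), BAP31 (model GWHGABGR011084), windbeutel, HYOU1, UBE2J1 and a pair of UBE2G2 models (GWHGABGR000272 and GWHGABGR000274). No called member took a called opposite sign on another scale. Leaving out male replicate 3 brought the higher members down to 18.

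**Figure D1:**
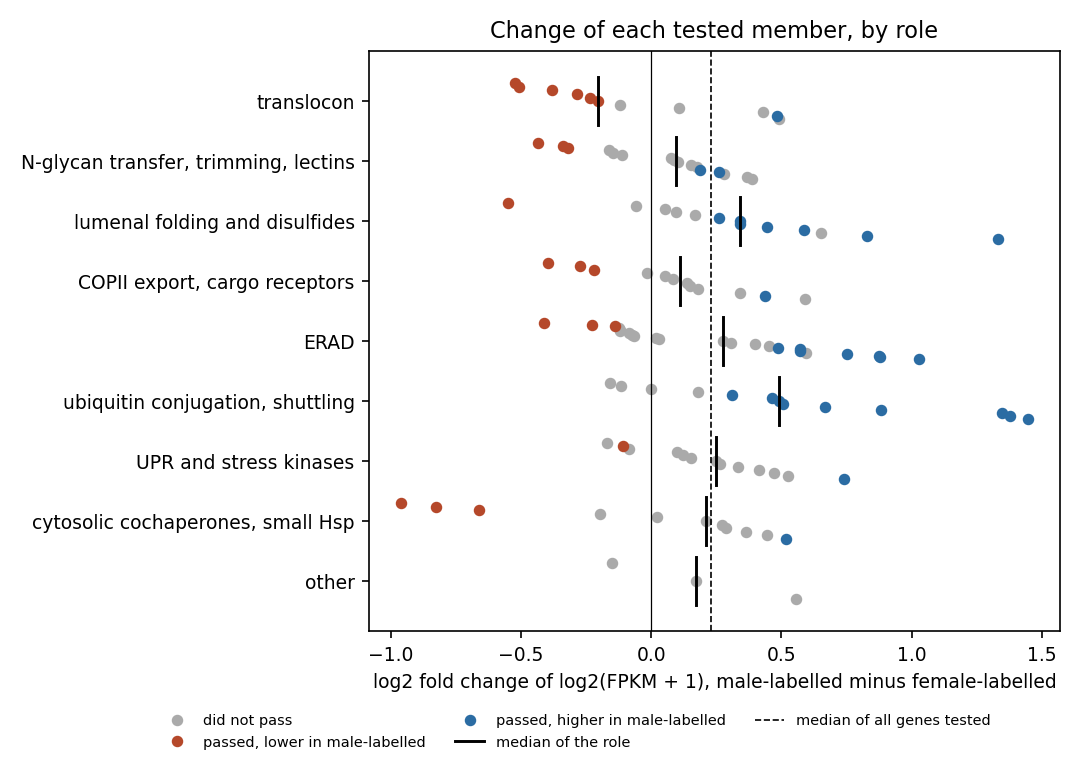
Each point is 1 tested member, placed by its log2 fold change on the log2(FPKM + 1) scale (x axis, male-labelled minus female-labelled libraries) within its role (rows); blue and red points passed limma as higher and lower in the male-labelled libraries, solid ticks mark role medians and the dashed line the median of all genes, 0.23. The translocon median lies at -0.20 and the ubiquitin median at 0.49.

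Genes of the channel by which proteins enter the endoplasmic reticulum were lower in the male-labelled libraries. Of 7 genes of the Sec61 channel, its partner Sec63 and the translocon-associated protein (TRAP) complex, 6 were lower and none higher, and the 7 had a median log2 fold change of -0.29. All 7 were lower after median-of-ratios rescaling, and 6 after quantile normalization. Each of the 7 had a mean above 100 FPKM. At that level, 32.2% of all genes were lower on the deposited scale, 59.0% by median of ratios and 33.3% by quantiles. Of all 11 members with a translocon role, 6 were lower and 1 higher, where all genes gave 9.03% lower and 27.8% higher. The summed level of the 11 was 2526 ± 67 FPKM (SD, n = 3) in the female-labelled and 2039 ± 78 FPKM in the male-labelled libraries.

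Sec61 alpha (GWHGABGR004609), which forms the channel itself, stood at 324, 296 and 300 FPKM in the female-labelled libraries and at 216, 225 and 205 FPKM in the male-labelled ones. The groups were well apart, with a log2 fold change of -0.51 (SE 0.05, limma adjusted p = 0.000118). TRAP alpha (GWHGABGR018012), a membrane subunit of the complex that helps some signal sequences engage the channel, stood at 247, 236 and 228 against 164, 168 and 161 FPKM. Its libraries did not overlap either, with a log2 fold change of -0.52 (SE 0.05, limma adjusted p = 4.54e-05). TRAP delta (GWHGABGR019560), another subunit of that complex, stood at 267, 283 and 262 against 204, 192 and 229 FPKM, with a log2 fold change of -0.38 (SE 0.07, limma adjusted p = 0.00254). The most abundant gene of the role, Sec61 gamma (GWHGABGR005207, named by symbol), encodes a small subunit that clamps the channel. It stood at 1135, 1131 and 1067 against 839, 925 and 972 FPKM, lower in every male-labelled library, with a log2 fold change of -0.29 (limma adjusted p = 0.00372).

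TRAP beta (GWHGABGR007283) was lower as well, with a log2 fold change of -0.23 (limma adjusted p = 0.00508). Sec63 (GWHGABGR008309), which recruits BiP to the channel, passed with a log2 fold change of -0.20 (limma adjusted p = 0.0356). Its call was lost without female replicate 2 or 3 or without male replicate 1 or 2, where the adjusted p reached 0.115. TRAP gamma (GWHGABGR011250) was the member of the 7 that did not pass, at -0.12, and its groups overlapped.

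The 4 other translocon members were much less abundant. Ribosome-binding protein 1 (model GWHGABGR015333), a membrane protein that binds ribosomes in mammals, stood at 12.2, 14.1 and 9.76 against 18.3, 14.8 and 18.2 FPKM. Its log2 fold change of 0.48 (limma adjusted p = 0.037) was the only higher call of the role, and it was lost on both other scales and without female replicate 1 or 3 or male replicate 1 or 3. The neighbouring model GWHGABGR015332, at 0.49, and Sec62, a partner of Sec63 at 0.43, did not pass. A partial signal sequence receptor model with the symbol of TRAP alpha had 9 reads in each group and was at 0.11, also without passing.

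Genes for the transfer of N-glycans showed the same direction. The oligosaccharyltransferase moves a preassembled glycan from its lipid carrier onto the growing chain, and 3 of its 6 genes were lower and none higher in the male-labelled libraries. Their median log2 fold change was -0.24, and all 6 were lower after median-of-ratios rescaling and after quantile normalization. Over all genes, 9.03% were lower on the deposited scale, 17.6% by median of ratios and 14.6% by quantiles. By median of ratios, the share lower was 19.6% at 10 to 50 FPKM, 39.3% at 50 to 100 FPKM and 59.0% above. The 6 genes lay at these levels. Ribophorin II (GWHGABGR008653), an accessory subunit, stood at 98.3, 90.4 and 95.8 FPKM in the female-labelled and at 69.1, 71.5 and 69.3 FPKM in the male-labelled libraries. The 2 sets were far apart, with a log2 fold change of -0.43 (SE 0.06, limma adjusted p = 0.000495). OST48 (GWHGABGR009820), also a noncatalytic subunit, was lower at -0.32 (limma adjusted p = 0.0029).

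The catalytic subunits, homologues of yeast STT3, were represented by a pair of models. Simp (GWHGABGR015413, named by symbol) stood at 35.2, 38.5 and 35.2 against 30.9, 26.0 and 28.7 FPKM. The groups did not overlap and the log2 fold change was -0.34 (limma adjusted p = 0.0187), a call lost without female replicate 2 or male replicate 2, with an adjusted p of up to 0.0643. STT3A (GWHGABGR014302) was at -0.16, ribophorin I (GWHGABGR008711) at -0.15 and TUSC3 (GWHGABGR005185), an oxidoreductase subunit in mammals, at -0.11. None of these 3 passed on the deposited scale.

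**Figure D2:**
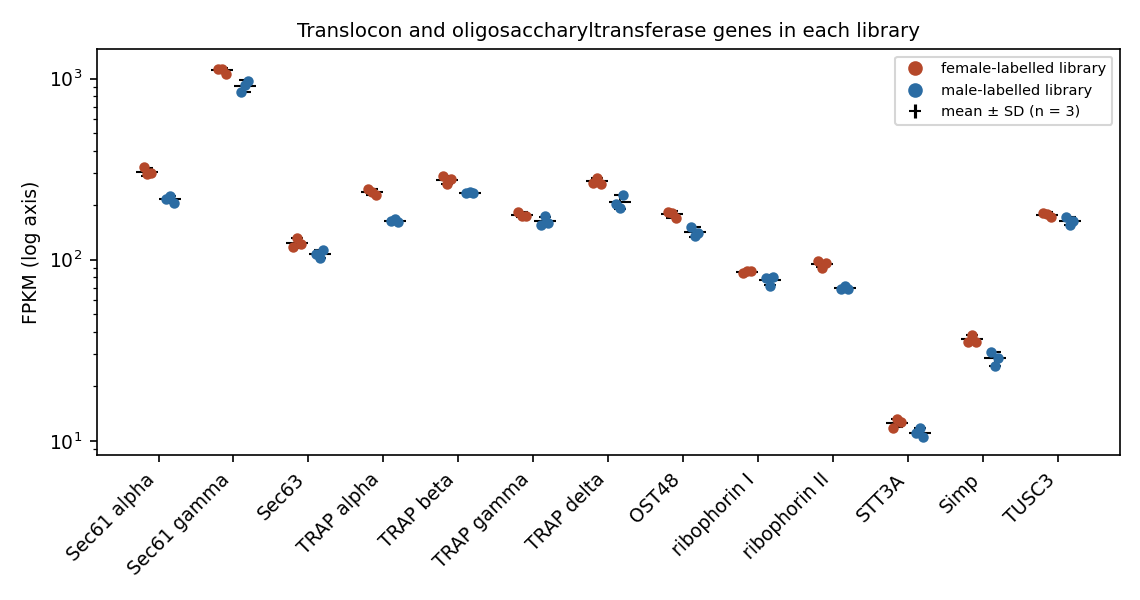
FPKM on a log axis (y) of 13 translocon and oligosaccharyltransferase genes (x) in each of the 3 female-labelled (red) and 3 male-labelled (blue) libraries, with the mean ± SD (n = 3) as black lines. Sec61 alpha is at 296 to 324 FPKM in the red and at 205 to 225 FPKM in the blue points, and TRAP alpha and ribophorin II are as clearly apart.

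Lectin chaperones hold glycoproteins while they fold. Calreticulin (GWHGABGR004618), a soluble lectin chaperone and the most abundant member of the set, stood at 1196, 1225 and 1221 FPKM in the female-labelled and at 1365, 1407 and 1371 FPKM in the male-labelled libraries. Every male-labelled library was above every female-labelled one, by a log2 fold change of 0.19 (SE 0.03, limma adjusted p = 0.000869). The call held after quantile normalization at 0.16, but after median-of-ratios rescaling the value was -0.07 and did not pass. Calnexin, its membrane-bound counterpart, had a pair of models. Model GWHGABGR005830 stood at 75.6, 73.4 and 74.3 against 77.4, 79.2 and 80.9 FPKM, a log2 fold change of 0.09 that did not pass and that was called lower, at -0.17, after median-of-ratios rescaling. The neighbouring model GWHGABGR005831 stood at 5.50, 7.67 and 7.23 against 9.84, 8.52 and 8.66 FPKM and did not pass at 0.37.

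UGGT (GWHGABGR014519), which puts a glucose back on misfolded glycoproteins so that calnexin and calreticulin bind them again, stood at 22.3, 23.3 and 23.0 against 26.6, 26.8 and 29.2 FPKM. The groups did not overlap, and the log2 fold change was 0.26 (limma adjusted p = 0.039). That call was lost without any single library, at adjusted p between 0.0639 and 0.123, and on both other scales. With it, the higher members of the glycan role were 2 of 16. The trimming enzymes, among them glucosidase I, the beta subunit of glucosidase II and the mannosidase I models, ranged in log2 fold change from 0.07 to 0.39, and none passed.

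Folding genes moved in both directions. Of 13 tested members, 7 were higher and 1 lower in the male-labelled libraries. Their median log2 fold change was 0.34. The 1 lower gene was the most abundant disulfide isomerase, so that the summed level of the role was 2908 ± 20 FPKM (SD, n = 3) in the female-labelled and 2754 ± 36 FPKM in the male-labelled libraries. All genes gave 27.8% higher and a median of 0.23. The number higher in the role was 4 without male replicate 3. Median-of-ratios rescaling gave 2 higher and 3 lower, and quantile normalization 3 higher and 2 lower.

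HYOU1 (GWHGABGR007935, named by symbol), a large chaperone that acts as a nucleotide exchange factor of BiP in mammals, stood at 9.79, 11.1 and 11.4 FPKM in the female-labelled libraries and at 29.7, 27.9 and 28.0 FPKM in the male-labelled ones. The male-labelled values were all more than double the female-labelled ones. With a log2 fold change of 1.33 (SE 0.10, limma adjusted p = 1.62e-05), this was the largest change among folding members, and it stayed at 1.09 and 1.07 on the other scales. BiP (GWHGABGR014918), the Hsp70-type chaperone of the lumen that HYOU1 serves, stood at 1115, 1159 and 1156 against 1088, 1086 and 1120 FPKM. Its groups overlapped and its log2 fold change of -0.06 did not pass on the deposited scale, while it was called lower at -0.32 and -0.10 on the other scales.

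Disulfide isomerases form and reshuffle disulfide bonds. The main one, PDI (model GWHGABGR017802), stood at 908, 924 and 928 FPKM in the female-labelled and at 628, 636 and 621 FPKM in the male-labelled libraries. The replicates of each label lay close together and the groups far apart, with a log2 fold change of -0.55 (SE 0.03, limma adjusted p = 1.51e-06). Windbeutel (GWHGABGR021260), a relative of the isomerases that in Drosophila helps a sulfotransferase leave the endoplasmic reticulum, went the other way, at 103, 101 and 112 against 161, 144 and 173 FPKM. Its log2 fold change was 0.58 (SE 0.08, limma adjusted p = 0.000454).

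PDIA3 (GWHGABGR007224), the isomerase that works with the lectin chaperones in mammals, stood at 298, 296 and 279 against 299, 312 and 294 FPKM. The groups overlapped, and the log2 fold change of 0.05 did not pass, while median-of-ratios rescaling called it lower at -0.21. PDIA6 (GWHGABGR008712) stood at 89.8, 79.6 and 88.9 against 99.96, 101 and 109 FPKM. Its log2 fold change of 0.26 passed (limma adjusted p = 0.016) but not on the other scales, nor without male replicate 3 (adjusted p = 0.0558). TXNDC5 (GWHGABGR015146), a thioredoxin-domain relative, passed at 0.34 (limma adjusted p = 0.0489), again on the deposited scale alone, and lost the call when any library but female replicate 1 was left out. PDI was also represented by a pair of short models next to each other. Model GWHGABGR018836, named by symbol, stood at 2.21, 5.44 and 4.26 against 7.51, 6.33 and 8.75 FPKM and passed at 0.83 (limma adjusted p = 0.0375), but on neither other scale and not without 5 of the 6 libraries. Model GWHGABGR018837 had 4 reads in the female-labelled and 0 in the male-labelled libraries and was not tested. Of 6 disulfide isomerases tested, 4 were thus higher and 1 lower, and the higher count fell to between 1 and 3 when 1 library was left out, with 1 without male replicate 3.

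Ero1 (GWHGABGR009944), the oxidase that recharges PDI, stood at 3.48, 3.80 and 6.89 against 7.96, 7.85 and 7.33 FPKM. All male-labelled libraries were above the female-labelled ones, but 1 female-labelled library lay close to them, and the log2 fold change of 0.65 fell just short of the threshold (limma adjusted p = 0.0501). Among cochaperones with a J domain, which hand clients to Hsp70-type chaperones, shv (GWHGABGR004040) was higher at 0.34 (limma adjusted p = 0.000729) and DNAJB12 (GWHGABGR019682) at 0.45 (limma adjusted p = 0.00737). Median-of-ratios rescaling ended both calls, and quantile normalization that of DNAJB12. DNAJC3, at 0.10, did not pass.

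Genes for export toward the Golgi were lower at a few points. Of 8 genes of the COPII coat and its GTPase SAR1, 2 were lower and none higher in the male-labelled libraries. Both lower genes had a mean above 100 FPKM, a level at which 32.2% of all genes were lower. The whole role of 12 genes had 3 lower and 1 higher, or 2 higher without male replicate 2. ERGIC-53 (GWHGABGR002616), a cargo receptor that carries glycoproteins out of the endoplasmic reticulum, stood at 41.3, 39.3 and 42.2 FPKM in the female-labelled and at 30.4, 31.3 and 31.0 FPKM in the male-labelled libraries. The 2 groups were separate, with a log2 fold change of -0.39 (SE 0.07, limma adjusted p = 0.00286). SEC13 (GWHGABGR015477), of the outer COPII coat, stood at 164, 150 and 161 against 132, 126 and 134 FPKM, with a log2 fold change of -0.27 (limma adjusted p = 0.00438). Sec23 (GWHGABGR015462, named by symbol), of the inner coat, was lower at -0.22 (limma adjusted p = 0.0109). The Sec24 models, whose products choose cargo, and Sec31A lay between 0.05 and 0.34 and did not pass.

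SAR1b (GWHGABGR010661), whose activation starts coat assembly, stood at 216, 216 and 221 against 221, 210 and 214 FPKM. The groups overlapped fully and the log2 fold change was -0.02, although median-of-ratios rescaling called it lower at -0.27. The 1 higher gene was BAP31 (model GWHGABGR011084), a membrane protein that sorts other membrane proteins at the exit of the endoplasmic reticulum in mammals. It stood at 187, 210 and 198 against 280, 250 and 276 FPKM, higher in all male-labelled libraries, with a log2 fold change of 0.44 (SE 0.06, limma adjusted p = 0.000687). The second model, GWHGABGR003644, was at 3.70 to 6.64 against 5.66 to 15.5 FPKM and did not pass. The summed level of the export role was 891 ± 4 FPKM in the female-labelled and 930 ± 33 FPKM in the male-labelled libraries (SD, n = 3).

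ERAD genes were called in both directions. Of 23 tested members, 7 were higher and 3 lower in the male-labelled libraries. Their median log2 fold change was 0.27, and both counts were near the shares over all genes. Of the 3 lower calls, 1 was left without female replicate 1 or 3 or without male replicate 2 or 3. After rescaling the counts were 4 higher and 7 lower by median of ratios, and 2 and 5 by quantiles.

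Derlins are membrane proteins of the site where misfolded proteins leave the endoplasmic reticulum. Derlin-2 (GWHGABGR010917) stood at 78.1, 79.6 and 73.6 FPKM in the female-labelled and at 102, 109 and 114 FPKM in the male-labelled libraries. It was higher in every male-labelled library, with a log2 fold change of 0.49 (SE 0.06, limma adjusted p = 0.000404). Derlin-1 (GWHGABGR017050, named by symbol), more than 3 times as abundant per length, stood at 387, 355 and 374 against 339, 331 and 344 FPKM. Its groups were apart by little, with a log2 fold change of -0.14 (limma adjusted p = 0.0343), and the call was lost when any library but female replicate 2 was left out, up to an adjusted p of 0.112. On the other scales derlin-1 was called lower at -0.40 and -0.23.

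Around the derlins, HRD1 (GWHGABGR015351), the membrane ubiquitin ligase of the pathway, stood at 100.3, 105 and 101 against 99.0, 94.3 and 88.4 FPKM. Its log2 fold change of -0.12 did not pass on the deposited scale, and it was called lower on both other scales, at -0.37 and -0.21. SEL1, the adaptor that brings substrates to HRD1, had a pair of models. Model GWHGABGR015595 stood at 50.2, 39.2 and 48.4 against 38.0, 32.0 and 32.5 FPKM and was lower at -0.41 (limma adjusted p = 0.021), a call lost without female replicate 1 or 3 or male replicate 2 or 3. Model GWHGABGR015527 stood at 32.9, 33.6 and 37.0 against 36.6, 37.4 and 31.9 FPKM, overlapping, with a log2 fold change of 0.03 whose sign was negative on the other scales.

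Lectins and mannosidases mark glycoproteins for this route. ERLEC1 (GWHGABGR006269), a lectin that binds trimmed glycans, stood at 209, 203 and 194 against 172, 177 and 167 FPKM. All male-labelled values were lower, with a log2 fold change of -0.23 (SE 0.05, limma adjusted p = 0.00622). The EDEM proteins, mannosidase relatives that trim glycans of misfolded proteins, differed by model. EDEM2 model GWHGABGR005513 stood at 4.68, 4.62 and 4.08 against 8.54, 7.85 and 8.15 FPKM and was higher at 0.75 (limma adjusted p = 0.0036), a call that quantile normalization ended. Its neighbour GWHGABGR005512 stood at 2.24, 3.31 and 3.33 against 2.43, 3.06 and 2.71 FPKM and did not pass at -0.07. EDEM3 (GWHGABGR000375), at 14.2, 14.0 and 15.3 against 15.7, 12.2 and 12.1 FPKM, did not pass at -0.12.

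Extraction into the cytosol depends on the ATPase VCP, called TER94 in Drosophila, and its cofactors. VCP (GWHGABGR001285) stood at 138, 92.9 and 124 against 115, 87.3 and 123 FPKM. The replicates of each label spread more widely than the groups differed, and the log2 fold change of -0.12 did not pass. The cofactor UFD1 (model GWHGABGR013270), which helps VCP recognise ubiquitin chains, stood at 25.8, 23.0 and 23.1 against 33.6, 36.0 and 39.0 FPKM. It was higher in all male-labelled libraries, with a log2 fold change of 0.57 (SE 0.09, limma adjusted p = 0.00149). NPL4 (GWHGABGR003316), its partner, was at -0.08 and p47 (GWHGABGR020283), another adaptor, at 0.02, and neither passed on the deposited scale. Median-of-ratios rescaling called both lower, at -0.34 and -0.24.

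PLAP (GWHGABGR004640), a ubiquitin-binding partner of VCP, stood at 7.92, 10.4 and 9.15 against 13.8, 15.5 and 12.9 FPKM. It was higher at 0.57 (limma adjusted p = 0.0116), on the deposited scale alone. A further UFD1 model, GWHGABGR013033, had 13 reads in the female-labelled and 32 in the male-labelled libraries, at 0.504, 1.33 and 0.341 against 1.77, 2.12 and 2.35 FPKM. Its call at 0.88 (limma adjusted p = 0.0264) was lost on both other scales and without 4 of the libraries. The third UFD1 model, GWHGABGR013032, had 19 and 32 reads and did not pass. Of the 9 genes of VCP and its cofactors, 3 were thus higher and none lower, a share near that of all genes, and median-of-ratios rescaling gave 1 higher and 2 lower.

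The most abundant ERAD member, close to derlin-1, was selenoprotein S (GWHGABGR020113), a membrane protein that recruits VCP to derlins in mammals. It stood at 378, 377 and 340 against 347, 341 and 355 FPKM. Its log2 fold change of -0.07 did not pass on the deposited scale, and on the other scales it was called lower at -0.32 and -0.16.

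Ubiquitin conjugation held the largest share of higher members. Of 13 tested, 9 were higher and none lower in the male-labelled libraries on the deposited scale, with a median log2 fold change of 0.49. Rescaling by median of ratios left 3 higher and 3 lower, and quantile normalization 6 higher and 2 lower. The summed level was 1612 ± 26 FPKM in the female-labelled and 1839 ± 48 FPKM in the male-labelled libraries (SD, n = 3).

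The E2 enzymes, which pass ubiquitin to a ligase and its substrate, had 6 of 7 higher on the deposited scale, with a median of 0.67. All genes gave 27.8% higher. Median-of-ratios rescaling left 3 E2 genes higher and 1 lower, and quantile normalization 4 higher and none lower. With 1 library left out, 4 or 5 were higher. Among the 7 counted, 3 were models of UBE2G2 that could be fragments of 1 gene. UBE2J1 (GWHGABGR015471), an E2 anchored in the membrane of the endoplasmic reticulum, stood at 38.3, 42.5 and 37.7 FPKM in the female-labelled and at 67.3, 58.4 and 64.1 FPKM in the male-labelled libraries. The groups were well separated, with a log2 fold change of 0.67 (SE 0.08, limma adjusted p = 0.000315). UBE2G2, an E2 that works with HRD1 in mammals, had 3 consecutive models. Model GWHGABGR000272 stood at 12.5, 13.9 and 16.6 against 29.8, 26.5 and 25.1 FPKM, with a log2 fold change of 0.88 (SE 0.12, limma adjusted p = 0.000748). Model GWHGABGR000274 stood at 1.25, 0.706 and 0.363 against 4.20, 3.49 and 3.55 FPKM, from 13 and 54 reads, with a log2 fold change of 1.45 (limma adjusted p = 0.00157). Both models were higher in every male-labelled library and on all 3 scales. The middle model, GWHGABGR000273, rested on 10 and 41 reads, its groups overlapped, and its call at 1.35 (limma adjusted p = 0.031) was lost on both other scales and without 4 of the libraries.

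UBE2J2 (GWHGABGR016169), the second membrane-anchored E2, was higher at 0.49 (limma adjusted p = 0.0277), but on neither other scale and not without female replicate 1 or 2 or male replicate 1 or 2. The model with the symbol UBE2G (GWHGABGR015994), whose best hit was named for a DNA polymerase, stood at 49.5, 61.3 and 49.5 against 85.0, 67.2 and 76.8 FPKM. It was higher at 0.51 (limma adjusted p = 0.008), a call that median-of-ratios rescaling ended. The most abundant E2, E2-17 kDa (GWHGABGR006393), stood at 885, 887 and 906 against 906, 922 and 855 FPKM. Its groups overlapped with a log2 fold change of 0.00, and median-of-ratios rescaling called it lower at -0.26.

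SKP1 (GWHGABGR005469), an adaptor of cullin-based ligases, was higher at 0.46 (limma adjusted p = 0.00327), and RAD23 (GWHGABGR010220), which carries ubiquitinated proteins to the proteasome, at 0.31 (limma adjusted p = 0.00472). Both calls held after quantile normalization and were lost by median of ratios. The ring box protein, the RING subunit of those ligases, had a pair of models. Model GWHGABGR005466 stood at 5.47, 4.54 and 15.8 against 13.9, 19.5 and 33.6 FPKM, with overlapping groups, and its call at 1.38 (limma adjusted p = 0.0377) was lost on both other scales and without 4 of the libraries. Model GWHGABGR005465 did not pass at -0.12 on the deposited scale and was called lower at -0.37 by median of ratios and at -0.29 by quantiles. Ubiquilin-1 (GWHGABGR016111), another shuttle to the proteasome, did not pass at -0.16 on the deposited scale and was called lower on the other scales, at -0.41 and -0.29.

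**Figure D3:**
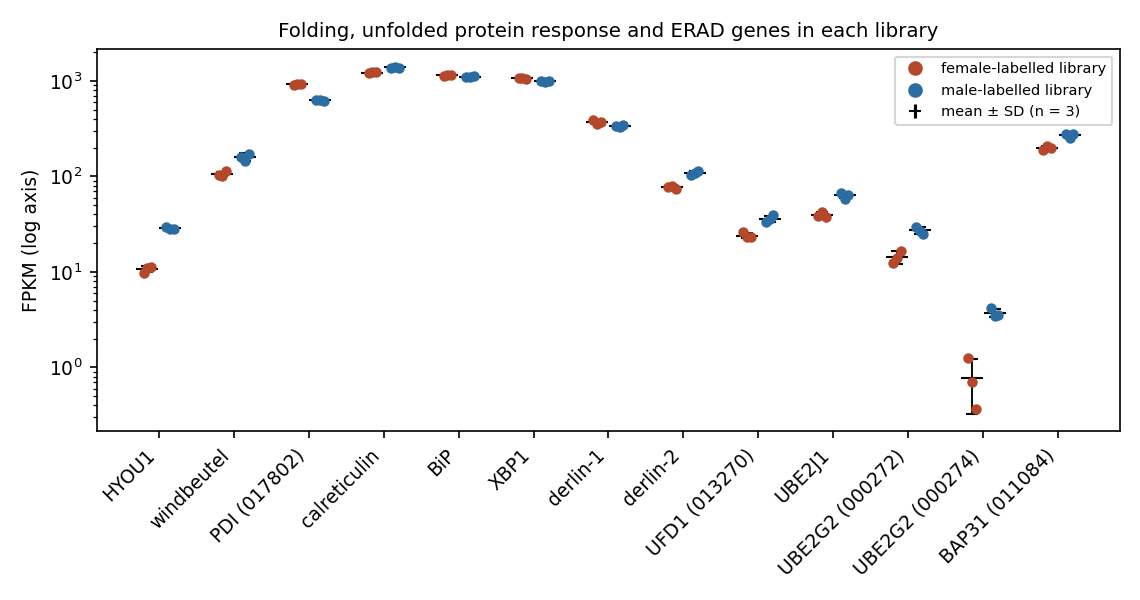
FPKM on a log axis (y) of 13 folding, unfolded protein response, export and ERAD genes (x) in each of the 3 female-labelled (red) and 3 male-labelled (blue) libraries, with the mean ± SD (n = 3) as black lines. HYOU1, windbeutel, derlin-2, UFD1, UBE2J1, UBE2G2 and BAP31 are higher in every blue point, PDI is lower, and BiP and XBP1 differ by little.

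Genes of the unfolded protein response and stress kinases showed few calls. Of 13 tested members of this role, 1 was higher and 1 lower in the male-labelled libraries. All genes gave 27.8% higher and 9.03% lower. The median of the role was 0.25. XBP1 (GWHGABGR009937, named by symbol), the transcription factor whose message IRE1 splices, stood at 1070, 1074 and 1045 against 999, 966 and 993 FPKM. All male-labelled values were lower, but by little, with a log2 fold change of -0.11 (SE 0.03, limma adjusted p = 0.0184), and the call was lost without female replicate 1 or 2 (adjusted p up to 0.0642). Without female replicate 3 the role had 2 higher members. The table gives 1 value per gene, so the spliced and unspliced messages were not told apart here.

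IRE1 (GWHGABGR007864), the sensor itself, stood at 0.872, 0.662 and 1.09 against 1.26, 1.46 and 1.76 FPKM, from 78 and 115 reads. Its groups did not overlap, but the log2 fold change of 0.41 did not pass (limma adjusted p = 0.145). ATF6 (GWHGABGR014844, named by symbol), a transcription factor released from its membrane anchor under stress, stood at 1.88, 1.62 and 3.02 against 3.49, 3.51 and 3.47 FPKM. It did not pass at 0.53 (limma adjusted p = 0.0823). The site-1 protease (GWHGABGR000111), which makes the first cut in ATF6, stood at 1.48, 1.07 and 2.16 against 3.25, 3.35 and 3.11 FPKM. It passed at 0.74 (limma adjusted p = 0.0243), but on neither other scale and not when any library but female replicate 3 was left out.

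The translation arm of the response acts through eIF2 alpha, whose phosphorylation slows protein synthesis. eIF2 alpha (GWHGABGR017131) stood at 88.6, 91.4 and 86.9 against 96.7, 77.1 and 78.7 FPKM. The groups overlapped, and the log2 fold change of -0.09 did not pass on the deposited scale, while median-of-ratios rescaling called it lower at -0.34. No member's name matched PERK, ATF4 or endoplasmin. The GCN2 models and the kinase named eIF2 alpha kinase 1-like, between 0.15 and 0.33, did not pass. Wolframin, a membrane protein of the endoplasmic reticulum, at 0.12, the kinase JNK at 0.26 and the site-2 protease at 0.10 did not pass either.

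Cytosolic cochaperones are counted in the pathway because they meet the extracted proteins. Of 11 tested, 3 were lower and 1 higher in the male-labelled libraries, where all genes gave 9.03% lower and 27.8% higher. By median of ratios 3 were lower and none higher, and by quantiles 4 were lower and none higher. The 3 lower on the deposited scale all carried the small heat shock symbol CG4533. The rule kept them because their names, lethal(2)essential for life-like or a hypothetical protein, did not contain the excluded words. Model GWHGABGR007311 stood at 46.1, 49.3 and 48.0 against 22.4, 21.5 and 28.9 FPKM, far higher in the female-labelled libraries, with a log2 fold change of -0.96 (SE 0.11, limma adjusted p = 0.000268). Model GWHGABGR020860 stood at 15.5, 9.07 and 9.79 against 5.14, 6.70 and 5.79 FPKM, with a log2 fold change of -0.83 (limma adjusted p = 0.0143). Model GWHGABGR001202 stood at 33.1, 31.2 and 28.0 against 17.0, 21.9 and 18.7 FPKM, with a log2 fold change of -0.66 (limma adjusted p = 0.00248). The groups of all 3 were separate. Model GWHGABGR020858 did not pass at -0.20 on the deposited scale and was called lower at -0.52 after quantile normalization. The number higher in the role was 2 without female replicate 2 and 3 without male replicate 2. Without this symbol the set had 29 higher and 17 lower members.

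CHIP (GWHGABGR003411), a ubiquitin ligase that works with Hsp70, stood at 23.2, 21.2 and 15.2 against 29.1, 25.7 and 30.6 FPKM. It was higher at 0.52 (limma adjusted p = 0.0287), a call lost on both other scales and without female replicate 3, male replicate 1 or male replicate 3. The most abundant member of the role, DNAJC5 (GWHGABGR014628), a J-domain protein of synaptic vesicles, stood at 29.3, 41.5 and 33.9 against 45.4, 39.0 and 50.8 FPKM. Its groups overlapped and it did not pass at 0.37. The DNAJA models and BAG2, a regulator of Hsp70, did not pass.

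Members of no clear role were 3 genes. The most abundant, model GWHGABGR015352 with no informative name, stood at 184, 179 and 191 against 152, 164 and 183 FPKM. Its groups overlapped, and it did not pass at -0.15, though median-of-ratios rescaling called it lower at -0.41. The remaining 2 did not pass on any scale.

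Among themselves the members differed in level by orders of magnitude. Calreticulin had a mean of 1298 FPKM over the 6 libraries, BiP 1121, XBP1 1025, Sec61 gamma 1012, E2-17 kDa 893 and PDI (model GWHGABGR017802) 774 FPKM. The top 7 members held 50.18% of the summed FPKM of the set. Together the members made up 0.976% ± 0.0046 of all FPKM in the female-labelled and 0.952% ± 0.0034 in the male-labelled libraries (SD, n = 3). The precision followed the level. The median coefficient of variation between libraries of a label was 4.0% for the 30 members of at least 100 FPKM, 7.29% for the 48 between 10 and 100 FPKM and 21.38% for the 37 tested members below 10 FPKM.

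Direction went with level as well. Of the 30 members with a mean of at least 100 FPKM, 6 were higher and 13 lower (43.3%) in the male-labelled libraries. Among all 1212 genes of that level, 35.1% were higher and 32.2% lower. Of the 37 members between 0.5 and 10 FPKM, 8 were higher and 1 lower, and all genes of that level gave 20.3% and 3.95%. After quantile normalization, 16 of the 30 abundant members were lower and 6 higher, and all genes of that level gave 33.3% lower and 31.4% higher. After median-of-ratios rescaling 22 of the 30 were lower (73.3%), against 59.0% of all genes of that level. Since most translocon and transferase genes lie above 100 FPKM or near it and many ubiquitin genes below, role and level are not separate descriptions of the set.

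**Figure D4:**
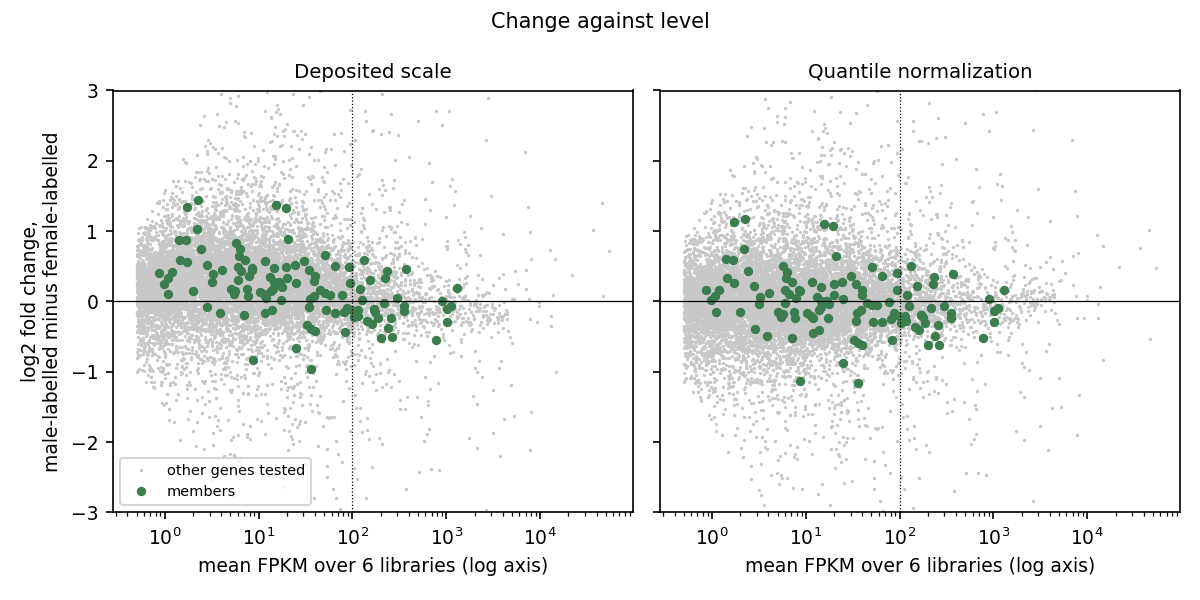
Log2 fold change of log2(FPKM + 1) (y axis, male-labelled minus female-labelled) against mean FPKM over the 6 libraries (x axis, log) for tested members (green) and all other genes tested (grey), on the deposited scale (left) and after quantile normalization (right); the dotted line marks 100 FPKM. Genes beyond 3 in either direction, 70 on the left and 69 on the right, are outside the plotted range. To the right of the dotted line the green points lie mostly below 0 on both scales.

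The groups of 65 of the 115 tested members did not overlap, so that all libraries of 1 label lay above all of the other. Over all genes tested this was the case for 50.1%. Of the 49 called members, 18 lost the call when at least 1 library was left out. These were mostly genes of low level or small change, and, among members above 100 FPKM, derlin-1, XBP1 and Sec63. The remaining 4 members were below the filter. They included a small heat shock model (GWHGABGR020873) with 3 reads in the female-labelled and 10 in the male-labelled libraries, DNAJC10, a reductase of the lumen, with 14 and 42, and the PDI model GWHGABGR018837.

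The summed levels of markers of other tissues that an antenna can hold also differed between the labels. The 14 hemocyte genes summed to 161 to 168 FPKM in the female-labelled and to 182 to 205 FPKM in the male-labelled libraries, the 52 fat body and hemolymph genes to 1210 to 1264 and 1304 to 1365 FPKM, and the 32 muscle genes to 227 to 241 and 252 to 254 FPKM. Muscle gene GWHGABGR001084 alone went from 94.4 to 95.7 FPKM up to 115 to 120 FPKM, a larger difference than that of the muscle sum. Of their tested members, 4 of 7, 16 of 32 and 2 of 16 were higher, and 0, 2 and 1 were lower, in the male-labelled libraries. Over all genes, 27.8% were higher and 9.03% lower. Median-of-ratios rescaling gave 3, 11 and 1 higher and 0, 2 and 2 lower. Quantile normalization gave 2, 9 and 2 higher and 0, 3 and 1 lower. The 26 antimicrobial peptide genes summed to 2231 to 2357 FPKM in the female-labelled and to 14058 to 14192 FPKM in the male-labelled libraries, with 21 higher and 2 lower. The 23 antennal sensillum genes, which encode secreted carriers among others, summed to 131775 to 136414 and to 44627 to 47385 FPKM, with 12 higher and 4 lower of 20 tested. Without pheromone-binding protein 1, the other 22 genes summed to 41637 to 42355 FPKM in the female-labelled and to 43448 to 46105 FPKM in the male-labelled libraries, the opposite order. No gene of the deposited table was at 0 in all 6 libraries, so that the presence of a marker in it says little. At 0 in at least 1 library were 1 hemocyte gene, 23 fat body and hemolymph genes and 11 muscle genes. The same held for 2 antimicrobial peptide genes and 3 antennal sensillum genes. The part of these marker differences in the changes of the endoplasmic reticulum genes was not tested.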

How the data were processed

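The deposited table holds FPKM per gene with best-hit names, symbols and pathway names added by the authors. The submitters' processing notes name Trimmomatic, HISAT2, HTSeq and R 3.2.0 without roles. RNA was taken up in Trizol and made into strand-keeping libraries, per the labels' protocols. The strand setting of the counting is not given in the sources used here. Reads of overlapping antisense genes may be included.

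The deposited FPKM values were turned into log2(FPKM + 1), which understates changes of low genes. All genes with a mean of at least 0.5 FPKM (11590) were fitted with limma 3.58.1 in R 4.3.3, with a mean-variance trend, sex label as the only term, 2-sided tests and Benjamini-Hochberg adjustment at 0.05. Reads were recovered from the steps between FPKM values, whole within 0.01 read for 16458 of 16458 genes, and served for depth only. Rescaling by median of ratios, quantile normalization, a pseudocount of 0.1, no filter on low values, a filter of 2 FPKM, a replicate block and leaving out each library were the alternatives. The fit was tested on simulated data. It found 10 of 58 changes of 1.5-fold, 47 of 70 of 2-fold and 62 of 67 of 4-fold. There were 10 false calls among the 11604 genes tested. Far fewer genes changed in the simulation than passed in the data, so these shares need not hold for the data.

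Members, roles and marker lists were chosen with earlier results of these data known. Values in every library were given for the 10 largest nonoverlapping calls each way with at least 5 FPKM in the higher group, the 2 largest calls each way and the most abundant member of each role, and the named sensors, chaperones and ERAD components. Other members were named after their values were seen. Replicate numbers did not pair the libraries. The values of some members are not reported here, but they stay in all counts.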

Additional observations from a re-analysis of the deposited data

How the results depend on the processing

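The scaling moved the counts most. The number of members higher in the male-labelled libraries was 29 on the deposited scale, 10 after median-of-ratios rescaling and 13 after quantile normalization. The number lower was 20, 37 and 29, and the median log2 fold change 0.17, -0.062 and -0.042. Leaving out 1 library gave 18 to 24 higher members, with 18 without male replicate 3, 17 to 19 lower members, and medians from 0.16 to 0.19. No filter on low values gave 22 higher and 19 lower members, a filter of 2 FPKM 27 and 20, and a pseudocount of 0.1 gave 28 and 20. The cause of the moved counts was not tested.

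Replicate numbers did not pair the libraries, since deviations of same-numbered libraries from their group means correlated at 0.005, 0.006 and -0.004. The fit with the replicate block gave 25 higher and 18 lower members and a median of 0.17.

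Among 76 members followed through the alternatives, 8 changed sign in at least 1. By median of ratios, the log2 fold change became -0.24 for p47, -0.22 for SEL1 model GWHGABGR015527, -0.21 for PDIA3 (GWHGABGR007224), -0.17 for calnexin model GWHGABGR005830, -0.073 for calreticulin (GWHGABGR004618) and -0.26 for E2-17 kDa. By quantiles it became -0.065 for p47, -0.16 for SEL1 model GWHGABGR015527, -0.060 for PDIA3 and -0.0051 for calnexin model GWHGABGR005830. With 1 library left out, none of 5 small changes kept its sign throughout. The range was -0.0363 to 0.096 for p47 (GWHGABGR020283), -0.0102 to 0.102 for SEL1 model GWHGABGR015527, -0.0212 to 0.0333 for E2-17 kDa (GWHGABGR006393), -0.283 to 0.0288 for VCP (GWHGABGR001285) and -0.156 to 0.0188 for NPL4 (GWHGABGR003316). Of the 49 calls, 30 held with the same sign by median of ratios and 33 by quantiles.

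With 3 libraries a label, members below 10 FPKM had a median coefficient of variation of 21.38% within a label. Some calls there rest on few reads, such as 13 female-labelled and 54 male-labelled reads for UBE2G2 model GWHGABGR000274. Others rest on more, such as 460 and 725 for EDEM2 model GWHGABGR005513.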

Other observations

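Genes next to the endoplasmic reticulum set in the secretory and degradation pathways, taken by the pathway names of the deposited table, were counted in the same fit, in which 27.8% of all genes were higher and 9.03% lower in the male-labelled libraries. The heat shock and crystallin genes of the same pathway, left out by the rule, were lower in the male-labelled libraries in 20 of 31 tested genes and higher in 6, with a median log2 fold change of -0.55, and 21 were lower and none higher after median-of-ratios rescaling. Their summed level was 18738 ± 210 FPKM (SD, n = 3) in the female-labelled and 14801 ± 373 FPKM in the male-labelled libraries. SNARE genes, which fuse vesicles with their targets, had 10 of 17 higher and 1 lower, with a median of 0.47, and 5 higher and 2 lower after quantile normalization. Lysosome genes had 36 of 95 higher and 8 lower, at a median of 0.20, but 12 higher and 28 lower after median-of-ratios rescaling and 17 and 14 after quantile normalization.

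The proteasome, to which ERAD substrates are sent, had 7 of 41 tested genes higher and 6 lower, with a median of 0.01, and its summed level was 6484 ± 97 FPKM in the female-labelled and 6442 ± 277 FPKM in the male-labelled libraries (SD, n = 3). Median-of-ratios rescaling called 1 higher and 22 lower. Ubiquitin-mediated proteolysis genes outside the set had 21 of 78 higher and 4 lower, at a median of 0.24, close to the shares over all genes. The excess of higher genes turned to 7 higher and 12 lower by median of ratios and to 5 and 11 by quantiles. N-glycan biosynthesis genes outside the set, which build the lipid-linked glycan, had 5 of 19 higher and 1 lower, and 3 and 2 by median of ratios. Protein export genes outside the set had 3 of 12 higher and none lower, but none higher and 3 lower by median of ratios and none higher and 1 lower by quantiles. Ribosomal genes had 15 of 104 higher and 45 lower, at a median of -0.10, with 4 higher and 69 lower by median of ratios and 21 each way after quantile normalization.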
